A study of Homo sapiens with 6 samples.

Results

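The genes described here encode heparan sulfate proteoglycans and the proteins that make, sulfate and trim their sugar chains. They were chosen by name for what each is known to do and are 38 of the 60780 rows of the count table. Of these 38 genes, 12 encode core proteins (4 syndecans, 6 glypicans and the matrix proteoglycans perlecan and agrin) and 26 encode enzymes or a transporter of the pathway. A filter on low counts left 33 of the 38 for testing. The 5 genes below it were GPC3, GPC4, HS6ST2, HS3ST1 and SULF2.

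The RNA came from LX-2, a human line of hepatic stellate cells (HSCs), kept for 24 h in medium taken from HCT116, a line of human colorectal carcinoma. The HCT116 cells carried either the empty lentiviral vector (Vector-CM, n = 3) or the same vector with FGFBP1 (FGFBP1-CM, n = 3), and the comparison asks what tumor cell–derived FGFBP1 changes in HSCs. Both HCT116 lines were stable and selected with puromycin, so each medium came from 1 selected line, both groups received tumor cell medium, and no library from LX-2 cells in plain medium was analysed here. The labels do not say whether the replicates were separate cultures or separate batches of medium, so the p-values measure the spread between these samples, which may be technical.

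Heparan sulfate is a long, negatively charged sugar chain that is built on serine residues of a few core proteins in the Golgi. A linker of 4 sugars is laid down first, a polymerase then adds alternating glucuronic acid and N-acetylglucosamine, and further enzymes remove acetyl groups, add sulfate and convert glucuronic to iduronic acid. The sulfation pattern decides which proteins the chain holds. In the FGF pathway it stores FGF2 in the matrix and joins FGF2 to its receptor FGFR1, and FGFBP1 is a secreted carrier that takes FGF2 from this store. In the liver, HSCs are a main source of extracellular matrix.

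The libraries held 14003780 to 18508113 counts. FAP, which encodes the protease FAPα, rose in FGFBP1-CM by 4.52 on the log2 scale (SE 0.237, edgeR's quasi-likelihood test, adjusted p = 7.98e-07). Among the stellate cell markers, VIM stood at 1966 to 2678 CPM (counts scaled to a common library size) and COL1A1 at 116 to 169 CPM, whereas ACTA2 stood at 3.73 to 5.46 CPM, DES at 0.0 to 0.270 CPM, and LRAT had no count in any library. Libraries of FGFBP1-CM differed among themselves more than those of Vector-CM, with a chi-square per degree of freedom over genes of 4.83 to 10.21 between pairs against 2.88 to 5.73. Replicate 1 of FGFBP1-CM stood apart most.

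No heparan sulfate gene passed the adjusted threshold of 0.05 when the 2 media were compared, by edgeR's quasi-likelihood test with Benjamini-Hochberg adjustment over all 16707 tested genes. That threshold was passed by 20 genes in all, 0.12% of those tested. At an unadjusted p under 0.05, 10 of the 33 tested genes passed (30.3%), 9 at a lower and 1 at a higher level in FGFBP1-CM. The background for that count was 21.7% of all tested genes, made up of 10.7% lower and 11.1% higher. By sign alone, 25 of the 33 were lower and 8 were higher in FGFBP1-CM, and their median log2 fold change was -0.09. Of all tested genes, 49.3% were lower and the median was 0.0032. The median of the 33 was -0.05 with library size as the only scaling, where that of all genes was 0.04, and -0.13 without Vector-CM replicate 1. In 10 tested genes all 3 FGFBP1-CM libraries lay under all 3 Vector-CM libraries (13.2% of all tested genes did so), and in 1 they lay above (12.8%).

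**Figure D1:**
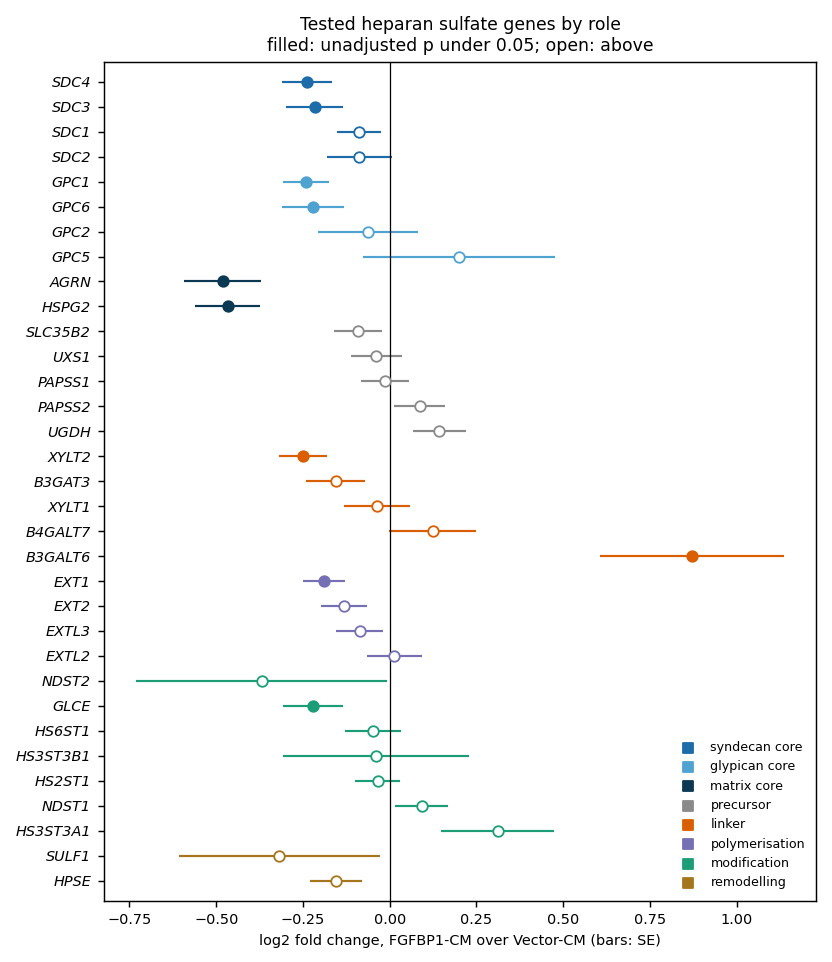
Log2 fold change of each of the 33 tested genes (x axis, FGFBP1-CM over Vector-CM, with the SE as a bar), grouped by role; filled points have an unadjusted p under 0.05 and open points do not. Both matrix core proteins lie near -0.47, the syndecans and GPC1 and GPC6 lie between -0.09 and -0.24, and B3GALT6 at 0.87 is the only filled point to the right of 0.

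Core proteins and enzymes were then taken apart. Of the 10 core proteins tested, 9 were lower in FGFBP1-CM, 6 had an unadjusted p under 0.05, all of them lower, and the median log2 fold change was -0.22. Of all tested genes, 10.7% were lower at that p and 49.3% were lower by sign. Of the 23 enzymes and transporter tested, 16 were lower, 4 had an unadjusted p under 0.05 (3 lower and 1 higher, or 17.4% against 21.7% of all tested genes), and the median was -0.04. The difference between the core proteins and the enzymes was not tested. Since whole cultures were sequenced, fewer cells of a type and less RNA per cell cannot be told apart here.

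The sequence before the start of transcription is shown for 3 core proteins measured at a lower level in FGFBP1-CM, HSPG2, GPC1 and SDC4. It is also shown for B3GALT6, a linker enzyme with a higher mean level there. None of these genes passed the adjusted threshold. Promoters were examined because the study's FGF axis runs through EGR1, a zinc finger transcription factor that binds GC-rich sites. RefSeq promoters (GRCh38.p14, 250 bases before the start to 50 after it) were matched by symbol for 31 of the 38 genes, and those of AGRN, EXT1, EXTL3, GPC3, PAPSS2, SDC2 and SULF1 were not matched. The windows printed are the 250 bases before the start, chr1:21937311-21937560 on the minus strand for HSPG2, chr2:240435413-240435662 on the plus strand for GPC1, chr20:45348425-45348674 on the minus strand for SDC4 and chr1:1231987-1232236 on the plus strand for B3GALT6. Each is written 5′ to 3′ on the strand of its gene, and capitals mark GCGGGGGCG, a form of the EGR1 site, or its reverse complement.
HSPG2: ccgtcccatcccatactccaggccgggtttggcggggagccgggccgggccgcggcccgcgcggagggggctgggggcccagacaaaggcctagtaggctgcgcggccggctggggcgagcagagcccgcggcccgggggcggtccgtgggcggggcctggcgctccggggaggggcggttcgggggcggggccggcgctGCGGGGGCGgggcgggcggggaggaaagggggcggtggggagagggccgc
GPC1: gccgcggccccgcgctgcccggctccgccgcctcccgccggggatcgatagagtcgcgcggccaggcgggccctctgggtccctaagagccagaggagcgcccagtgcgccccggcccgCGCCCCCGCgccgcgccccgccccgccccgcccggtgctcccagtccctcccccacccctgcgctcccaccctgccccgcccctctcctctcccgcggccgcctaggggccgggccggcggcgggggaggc
SDC4: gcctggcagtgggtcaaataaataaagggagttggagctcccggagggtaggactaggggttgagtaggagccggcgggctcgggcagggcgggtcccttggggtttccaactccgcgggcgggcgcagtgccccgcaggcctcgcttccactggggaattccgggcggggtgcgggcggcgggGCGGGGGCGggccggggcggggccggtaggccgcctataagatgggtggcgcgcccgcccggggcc
B3GALT6: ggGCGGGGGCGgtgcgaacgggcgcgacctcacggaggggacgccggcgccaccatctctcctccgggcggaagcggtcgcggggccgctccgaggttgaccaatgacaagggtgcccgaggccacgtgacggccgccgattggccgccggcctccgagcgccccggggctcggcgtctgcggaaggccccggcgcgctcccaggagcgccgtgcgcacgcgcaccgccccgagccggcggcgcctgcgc

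These windows were picked after the motif search, so their having GCGGGGGCG is no finding. Each held it at 1 position, which began 50 bases before the start in HSPG2, 131 in GPC1, 66 in SDC4 and 248 in B3GALT6. Searched on both strands of the whole 300-base promoters, it was present in 8 of the 31 matched genes (25.8%), against 10.4% of 11094 tested genes with a promoter and 6.14% of all 27305 genes in the reference. The other 4 genes with it, HS2ST1, HS3ST3A1, SLC35B2 and UXS1, had unadjusted p-values above 0.05 by edgeR's test. Of the genes at an unadjusted p under 0.05, XYLT2, SDC3, GLCE and GPC6 had a matched promoter without it. The related form GCGTGGGCG was in 0 of 31, against 1.69% of tested genes. GGGCGG, the core of an SP1 site, was in 29 of 31 (93.5%, against 75.6% of tested genes), and copies of it shared bases with the capitals in HSPG2, SDC4 and B3GALT6. The promoters of these genes were also richer in G and C, with a median of 69.2% over the 250 bases against 64.4% for the promoters of all tested genes, and the shares were not matched for this. The 31 also include GPC4, HS6ST2, HS3ST1 and SULF2, which were not tested, whereas the shares of tested genes leave such genes out. A match describes the letters of the window only. EGR1 itself was measured at 16.4, 17.4 and 12.2 CPM in Vector-CM and at 24.8, 19.2 and 14.8 CPM in FGFBP1-CM, which overlapped (log2 fold change 0.36, adjusted p = 0.241 by edgeR). These are RNA levels at 24 h. For EGR1 the study reported protein by Western blotting, location in the nucleus and binding to the FAP promoter, which are other measures.

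The matrix proteoglycans had the lowest fold changes of the 33 genes. HSPG2 (ENSG00000142798, chromosome 1, 21822245 to 21937297, minus strand, GENCODE 29, GRCh38) encodes perlecan, a large proteoglycan of basement membranes that binds FGF2 through its heparan sulfate. HSPG2 was measured at 154, 137 and 144 CPM in Vector-CM replicates 1 to 3 and at 90.8, 122 and 102 CPM in FGFBP1-CM replicates 1 to 3. Every FGFBP1-CM library lay under every Vector-CM library. Its log2 fold change was -0.47 (SE 0.0931, 27.6% lower), with an unadjusted p of 0.000221 and an adjusted p of 0.0568 by edgeR, just short of the threshold. With any of the 3 FGFBP1-CM libraries left out the adjusted p was below 0.05, at 0.0494 without replicate 1, 0.00721 without replicate 2 and 0.0413 without replicate 3. It was also below with counts corrected for GC content and length (adjusted p = 0.0383) and by DESeq2 (0.00103). It was above 0.05 with any Vector-CM library left out, with a block for replicate number (0.0612) and by limma (0.185 and 0.179). Over the 16 alternatives it ranged from 7.63e-07 to 0.242 and was below 0.05 in 6. By annotation, 11.7% of its exon bases overlap LDLRAD2 on the other strand.

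AGRN (ENSG00000188157, chromosome 1, 1020123 to 1056118, plus strand) encodes agrin, which organizes acetylcholine receptors at the neuromuscular junction and is also a basement membrane proteoglycan. It was measured at 298, 282 and 269 CPM in Vector-CM and at 170.1, 250.1 and 189 CPM in FGFBP1-CM. The groups did not overlap, but replicate 2 of FGFBP1-CM stood nearer to the Vector-CM libraries than to the other two of its group. The log2 fold change of AGRN was -0.48 (SE 0.111, 28.3% lower, adjusted p = 0.064 by edgeR). The value was -0.66 when FGFBP1-CM replicate 2 was left out (adjusted p = 0.00295), and over the 16 alternatives the adjusted p ranged from 5.19e-08 to 0.242 and was below 0.05 in 3. COL18A1, the collagen XVIII gene and a further basement membrane proteoglycan that was not among the 38, was measured at 53.4, 46.2 and 46.6 CPM in Vector-CM and at 31.0, 43.7 and 34.7 CPM in FGFBP1-CM. Its log2 fold change was -0.42 (adjusted p = 0.078 by edgeR), and its libraries had the same order within FGFBP1-CM as those of AGRN and HSPG2. This order is not particular to them. Among all 1780 genes lower at an unadjusted p under 0.05, replicate 1 was lowest in 79.3% and replicate 2 highest in 63.9%.

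Syndecans span the membrane and act as co-receptors for growth factors and as links to the cytoskeleton. SDC4, which sits in focal adhesions, was measured at 211, 232 and 232 CPM in Vector-CM and at 176, 204 and 192 CPM in FGFBP1-CM. These groups did not overlap (log2 fold change -0.24, SE 0.0713, adjusted p = 0.0969 by edgeR). Leaving out FGFBP1-CM replicate 2 gave an adjusted p of 0.0494 for SDC4, in a range of 0.0494 to 0.307 over the alternatives. SDC3, studied mostly in nerve and muscle, was measured at 109, 114 and 102 CPM in Vector-CM and at 89.9, 105 and 85.0 CPM in FGFBP1-CM, so that replicate 2 of FGFBP1-CM fell within the Vector-CM range. Its log2 fold change was -0.22 (SE 0.0818, adjusted p = 0.156, and 0.0414 without that library in a range of 0.0414 to 0.351). SDC1, the main syndecan of epithelia, differed by -0.09 (SE 0.0627, adjusted p = 0.434) and SDC2, the main syndecan of mesenchymal cells, by -0.09 (SE 0.0926, adjusted p = 0.619) on the log2 scale. In both of these the groups overlapped.

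**Figure D2:**
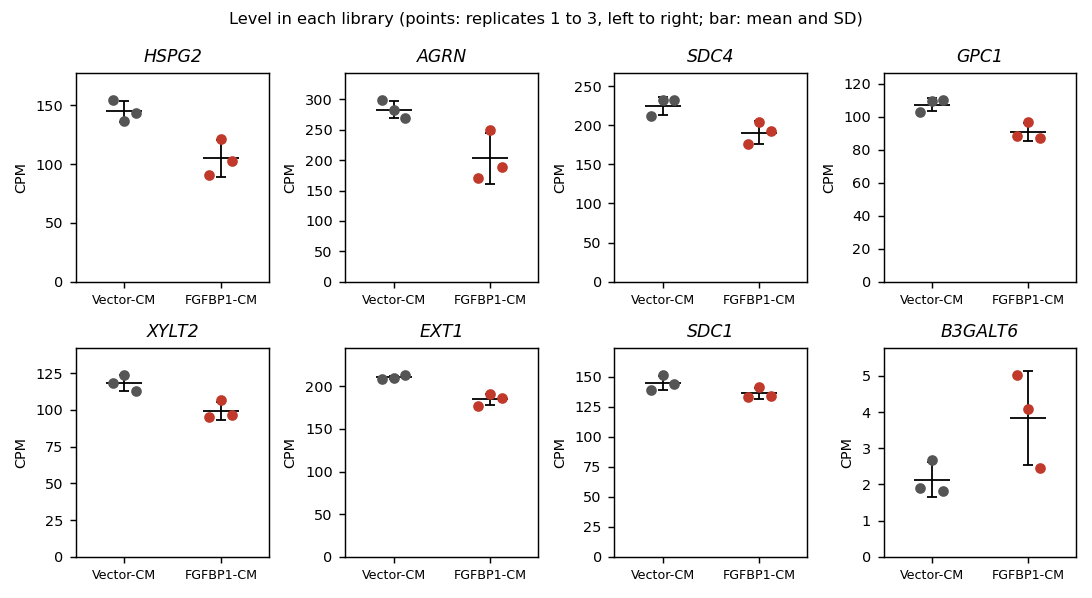
CPM (y axis, from 0) of 8 genes in the 6 libraries, with points for replicates 1 to 3 from left to right, and the mean and SD of each group as a bar. HSPG2, AGRN, SDC4, GPC1, XYLT2 and EXT1 lie lower in all 3 FGFBP1-CM libraries, SDC1 overlaps, and B3GALT6 is higher in FGFBP1-CM with replicate 3, at 2.45, inside the Vector-CM range.

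Glypicans are held to the outer membrane by a lipid anchor and bind Wnt, Hedgehog and FGF ligands. GPC1, the most abundant of them here, was measured at 103, 109.7 and 109.9 CPM in Vector-CM and at 88.1, 97.1 and 87.4 CPM in FGFBP1-CM, without overlap. Its log2 fold change was -0.24 (SE 0.0674, adjusted p = 0.0872, and 0.0412 without FGFBP1-CM replicate 2 in a range of 0.0412 to 0.287). With counts corrected for GC content and length, GPC1 differed by -0.16 (adjusted p = 0.203 by edgeR). GPC6, for which 7.36% of exon bases overlap AL354811.1 on the other strand, was measured at 51.5, 49.7 and 54.7 CPM in Vector-CM and at 38.5, 49.5 and 45.9 CPM in FGFBP1-CM, so that the groups were separate by a narrow margin (log2 fold change -0.22, SE 0.0899, adjusted p = 0.178). GPC6 differed by -0.12 when FGFBP1-CM replicate 1 was left out, and by -0.30 to -0.12 over the 6 such fits. GPC2 stood at 6.75 to 8.93 CPM over the 6 libraries and differed by -0.06 (adjusted p = 0.845), and GPC5 stood at 0.941 to 1.65 CPM and differed by 0.20 (SE 0.277, adjusted p = 0.714).

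Both X-linked glypican genes were barely detected. GPC3, an oncofetal glypican of liver, had 4, 5 and 7 counts in Vector-CM and 0, 1 and 0 in FGFBP1-CM, too few for the filter. A fit with no filter on low counts included GPC3 among 5 heparan sulfate genes past the adjusted threshold, where 3.64% of 38002 genes passed. GPC4 had 0 to 3 counts in each library, and a count of 0 allows up to 3 counts, or 0.158 to 0.217 CPM depending on the library. Markers of hepatocytes were lower in FGFBP1-CM together with GPC3. APOB (log2 fold change -3.59, adjusted p = 0.00034 by edgeR), ALB (-2.44, adjusted p = 0.00869) and AFP (-2.19, adjusted p = 0.0217) fell. All 5 of the tested markers of 9 were lower without overlap, as were 13.2% of all tested genes. APOB, ALB, AFP and TF had 23 to 65 counts in each Vector-CM library and 3 to 16 in each FGFBP1-CM library. The filter kept these 4 mainly for their Vector-CM counts, so the choice of tested markers favoured a lower level. The summed level of the 9 was 40.0 to 42.8 CPM in Vector-CM and 18.2 to 27.9 CPM in FGFBP1-CM. Most of that sum was SERPINA1, at 30.0, 30.6 and 28.3 CPM in Vector-CM and 16.2, 25.4 and 20.4 CPM in FGFBP1-CM (log2 fold change -0.53, adjusted p = 0.069), whereas APOB, ALB and AFP each stood at 4.38 CPM or less. TTR, APOA1, FGB and AHSG stood at 0.362 CPM or less in every library. The part of these transcripts in the values of GPC3 or of the other proteoglycans was not tested.

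FPKM values, which are scaled for gene length as well as library size, allow the genes to be ordered by level. The order rests on the gene lengths that the authors used. By GENCODE 29, EXT2 has 5286 exon bases and EXTL3 has 13220. EXT2 nonetheless had the lower mean FPKM (5.82 against 7.29) at the higher mean CPM (121 against 95.4), so its rank is uncertain. The mean level of SDC4 over the 6 libraries was 79.2 ± 7.21 FPKM (SD, n = 6) and that of SDC1 was 38.8 ± 1.41 FPKM (SD, n = 6), and these 2 stood clear of each other and of the rest. PAPSS1 (29.8 FPKM), SLC35B2 (28.8), GLCE (27.4), AGRN (22.5), UGDH (21.7), XYLT2 (19.8) and EXT1 (18.3) came next, and each of these neighbours overlapped the next in its range over the libraries. HSPG2 had a mean level of 6.86 FPKM, in rank 21 of 38, beside SDC2 (6.94 FPKM) and GPC6 (6.76 FPKM). At the lower end, 8 genes stood under 0.3 FPKM in their mean over the libraries, from HS3ST3B1 (0.225 FPKM) to HS6ST2 (listed at 0).

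**Figure D3:**
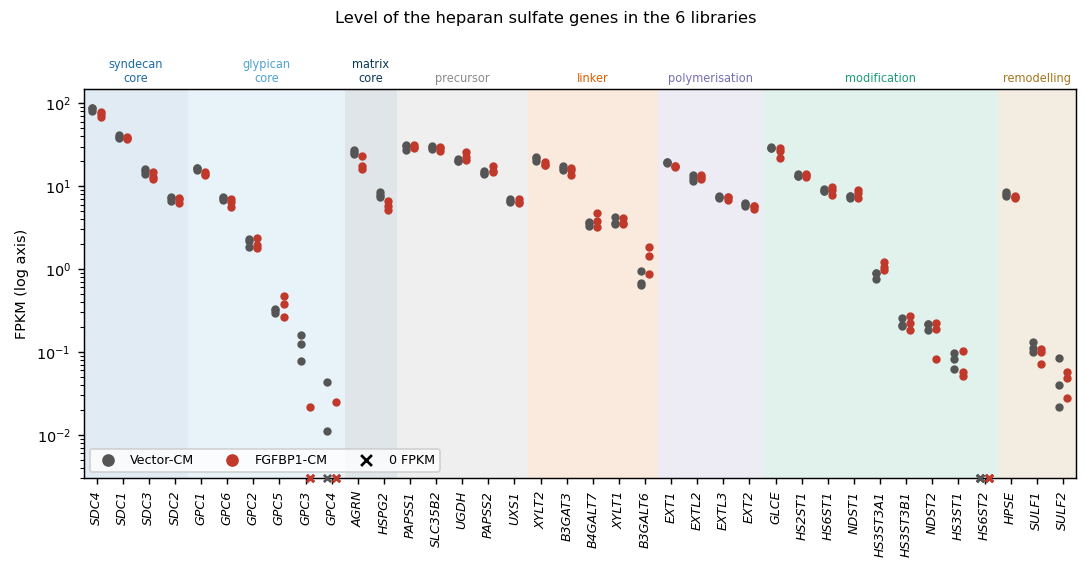
FPKM (y axis, log scale) of all 38 genes in the 6 libraries, grouped by role and ordered by level within a role; each point is a library and crosses on the axis are libraries at 0. SDC4 is the highest at 68.8 to 87.5, every role has at least 1 gene above 5, and GPC3, GPC4, HS6ST2, HS3ST1 and SULF2 lie at or under 0.16.

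The summed level of the 12 core protein genes was 202, 212 and 205 FPKM in Vector-CM and 169, 193 and 177 FPKM in FGFBP1-CM. The sum was thus 206 ± 5.05 FPKM (SD, n = 3) against 179 ± 12.4 FPKM (SD, n = 3), without overlap between the groups. Within the sum, the share of SDC4 was 41.1% in Vector-CM and 41.0% in FGFBP1-CM. The share of SDC1 was 19.2 ± 0.312% in Vector-CM and 21.3 ± 1.11% in FGFBP1-CM, without overlap (SD, n = 3 each). That of SDC2 was 3.43 ± 0.131% in Vector-CM and 3.80 ± 0.145% in FGFBP1-CM, also without overlap. AGRN held 12.6 ± 0.941% and 10.5 ± 1.29%, and HSPG2 held 3.82 ± 0.342% and 3.24 ± 0.215%, respectively. For AGRN the shares overlapped between the groups, and for HSPG2 they did not.

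**Figure D4:**
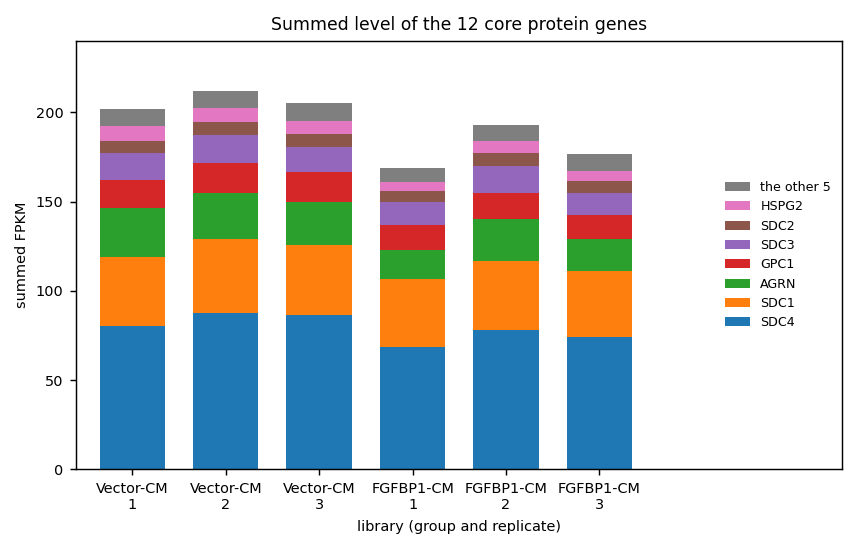
Summed FPKM of the 12 core protein genes (y axis, from 0) in each of the 6 libraries, with a colour for each of the 7 with the highest mean and 1 for the other 5. The bars reach 202 to 212 in Vector-CM and 169 to 193 in FGFBP1-CM, and SDC4 and SDC1 make up most of every bar.

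The precursors of the chain are UDP-glucuronic acid, UDP-xylose and the sulfate donor PAPS. None of the 5 genes of this step passed an unadjusted p of 0.05. UGDH, which makes UDP-glucuronic acid, was measured at 81.1, 81.5 and 86.7 CPM in Vector-CM and at 102, 84.2 and 88.9 CPM in FGFBP1-CM (log2 fold change 0.14, SE 0.0773, adjusted p = 0.299), and 7.24% of its exon bases overlap UGDH-AS1. UXS1, which makes UDP-xylose from it, differed by -0.04, the PAPS synthases PAPSS1 and PAPSS2 by -0.01 and 0.09, and SLC35B2, which carries PAPS into the Golgi, by -0.09 on the log2 scale. The groups overlapped in all 5.

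The linker step held the lowest unadjusted p of the enzymes and the highest fold change of the 33 genes. XYLT2, a xylosyltransferase that starts the chain on the core protein, was measured at 119, 124 and 113 CPM in Vector-CM and at 95.3, 107 and 96.5 CPM in FGFBP1-CM, without overlap. Its log2 fold change was -0.25 (SE 0.0684, adjusted p = 0.0847 by edgeR). It was 0.0436 by DESeq2 and 0.0383 when FGFBP1-CM replicate 2 was left out, in a range of 0.0383 to 0.25 over the alternatives. XYLT1, the other xylosyltransferase, had a lower level (38.4 to 47.0 CPM) and differed by -0.04 (SE 0.0943, adjusted p = 0.86).

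B3GALT6 (ENSG00000176022, chromosome 1, 1232226 to 1235041, plus strand) adds the second galactose of the linker. It had 34, 37 and 27 counts in Vector-CM and 95, 65 and 40 in FGFBP1-CM, or 1.90, 2.68 and 1.82 CPM against 5.01, 4.08 and 2.45 CPM. FGFBP1-CM replicate 3 lay below Vector-CM replicate 2, so that the groups overlapped. B3GALT6 differed by 0.87 on the log2 scale (SE 0.265, adjusted p = 0.101 by edgeR). Leaving out FGFBP1-CM replicate 3 gave 1.11 (adjusted p = 0.0312), and leaving out replicate 1 gave 0.63 (adjusted p = 0.263). Over the alternatives the fold change of B3GALT6 ranged from 0.43, with limma on log2(FPKM + 1), to 1.11, and the adjusted p from 0.00358 to 0.298. B4GALT7 and B3GAT3, which add the first galactose and the closing glucuronic acid, differed by 0.12 (adjusted p = 0.599) and -0.16 (adjusted p = 0.308).

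Chain polymerisation is carried out by a complex of EXT1 and EXT2, and the related EXTL3 adds the first N-acetylglucosamine. EXT1 was measured at 209, 209.6 and 213 CPM in Vector-CM and at 177, 190.5 and 186 CPM in FGFBP1-CM, without overlap (log2 fold change -0.19, SE 0.0601, adjusted p = 0.11). EXT2 was measured at 121, 129.6 and 128 CPM in Vector-CM and at 108, 119.7 and 117 CPM in FGFBP1-CM. EXT2 did not overlap either, but its unadjusted p was 0.0657 by edgeR (log2 fold change -0.13). EXTL3 differed by -0.09 (adjusted p = 0.483) and EXTL2, a transferase that acts on the linker, by 0.01 (adjusted p = 0.943).

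Of the 9 modification enzymes, 7 were tested and 1 had an unadjusted p under 0.05 (14.3%, against 21.7% of all tested genes). GLCE, the epimerase that turns glucuronic into iduronic acid, was measured at 192, 196 and 201 CPM in Vector-CM and at 143, 189.7 and 173 CPM in FGFBP1-CM. The groups were separate, with FGFBP1-CM replicate 1 the lowest (log2 fold change -0.22, SE 0.0871, adjusted p = 0.17). GLCE differed by -0.11 when that library was left out, and by -0.31 to -0.11 over the 6 such fits. NDST1, which removes acetyl groups and adds N-sulfate, stood at 68.8 to 82.7 CPM and differed by 0.09 (adjusted p = 0.507). NDST2 had 7 to 18 counts in each library, and 82.9% of its exon bases overlap AC022400.6 on the same strand, so its value is uncertain.

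Sulfate is added to the chain at fixed positions by the O-sulfotransferases. HS2ST1 (log2 fold change -0.03) and HS6ST1 (-0.05) were close to 0, with adjusted p-values of 0.8 and 0.773 by edgeR. HS6ST2 had 0 counts in all 6 libraries, which allows up to 3 counts, or 0.158 to 0.217 CPM. Among the enzymes of 3-O-sulfation, HS3ST3A1 was measured at 3.908, 3.906 and 3.37 CPM in Vector-CM and at 5.12, 4.58 and 4.16 CPM in FGFBP1-CM. Of the 33 tested genes it alone had all FGFBP1-CM libraries above the Vector-CM libraries, and the difference was 0.31 on the log2 scale (SE 0.164, adjusted p = 0.29). HS3ST3B1 differed by -0.04 (16 to 23 counts in each library), and HS3ST1 had 7 to 12 counts and was not tested.

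Chains are trimmed outside the cell by heparanase and by 6-O-endosulfatases. HPSE, the heparanase gene, was measured at 39.4, 44.1 and 42.4 CPM in Vector-CM and at 35.8, 38.1 and 39.0 CPM in FGFBP1-CM, which did not overlap (log2 fold change -0.16, SE 0.0753, unadjusted p = 0.0591, adjusted p = 0.25 by edgeR). SULF1 had 11 to 19 counts in each library (log2 fold change -0.32, SE 0.29, adjusted p = 0.554) and SULF2 had 2 to 10 counts.

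The libraries of FGFBP1-CM did not contribute equally to these values. In each of the 9 genes with a lower level at an unadjusted p under 0.05, replicate 2 was the highest of the 3 FGFBP1-CM libraries, and replicate 1 was the lowest in 7 and replicate 3 in 2. Among all 1780 genes lower at that p, replicate 1 was the lowest in 79.3% and replicate 2 the highest in 63.9%. Without FGFBP1-CM replicate 2, 6 of the heparan sulfate genes passed the adjusted threshold (SDC3, SDC4, GPC1, HSPG2, AGRN and XYLT2), where 5.15% of all tested genes did. Log2 fold changes of all genes also followed GC content, with a rank correlation across genes of -0.206 that a correction for GC content and length brought to -0.017. After that correction, 13 of the 33 genes had an unadjusted p under 0.05 (11 lower and 2 higher), and the median log2 fold change of the 33 was -0.11. Among the 10 core proteins tested, 6 had such a p, all lower, and the median moved from -0.22 to -0.17. Among the 23 enzymes and transporter tested, 7 had such a p (5 lower and 2 higher) in place of 4, and the median moved from -0.04 to -0.07. Of all tested genes, 21.2% had such a p after the correction, and their median was -0.01.

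Other genes of heparan sulfate biology were compared in the same fit. Of 27 further genes, 18 were tested and 9 had an unadjusted p under 0.05, 7 lower and 2 higher (the share of all tested genes was 21.7%), but none passed after adjustment. Those with the lowest p were COL18A1, SRGN and HS3ST5. SRGN, the proteoglycan of secretory granules, was measured at 326, 376 and 360 CPM in Vector-CM and at 283, 313 and 303 CPM in FGFBP1-CM (log2 fold change -0.24, adjusted p = 0.0955). HS3ST5, a 3-O-sulfotransferase, was measured at 1.23, 1.01 and 1.08 CPM against 0.633, 0.502 and 0.551 CPM (log2 fold change -0.97, adjusted p = 0.103). It had only 14 to 22 counts in each Vector-CM library and 8 to 12 in each FGFBP1-CM library. The filter thus kept HS3ST5 mainly for its Vector-CM counts, the group where it is high. Of 8 lysosomal enzymes that degrade the chain, GUSB (-0.29, adjusted p = 0.068) and SGSH (-0.22, adjusted p = 0.178) had an unadjusted p under 0.05, a share near that 21.7%.

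Chondroitin and dermatan sulfate are built on the same linker as heparan sulfate. Of 16 genes of that branch, 15 were tested, and 2 had an unadjusted p under 0.05, both higher in FGFBP1-CM. Their share, 13.3%, was below the 21.7% of all tested genes. DSEL, a dermatan sulfate epimerase, was measured at 39.7, 35.7 and 37.1 CPM in Vector-CM and at 51.8, 44.3 and 49.2 CPM in FGFBP1-CM (log2 fold change 0.37, SE 0.0801, adjusted p = 0.0568), and 36.8% of its exon bases overlap another gene. CHPF2, a chondroitin polymerising factor, differed by 0.60 (SE 0.172, adjusted p = 0.0903). The median log2 fold change of the 15 was -0.03.

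Among proteases that shed core proteins, MMP9 fell. It was measured at 36.6, 31.3 and 29.04 CPM in Vector-CM and at 14.6, 17.9 and 15.9 CPM in FGFBP1-CM (log2 fold change -1.01, SE 0.109, adjusted p = 0.00195), and 18.4% of its exon bases overlap another gene. MMP2 differed by -0.35 (adjusted p = 0.083) and MMP14 by -0.18 (adjusted p = 0.149), and ADAM10 and ADAM17 overlapped between the groups. TIMP1, an inhibitor of these metalloproteinases and one of the 14 stellate cell markers, fell by 0.38 on the log2 scale (adjusted p = 0.0465). Of the 12 markers of that list tested, 6 had an unadjusted p under 0.05, all lower in FGFBP1-CM (against 10.7% of all tested genes), among them LOX (-0.53, adjusted p = 0.0566) and TAGLN (-0.62, adjusted p = 0.0568). Their part in the values of the core proteins was not tested.

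For the ligand and the receptor that heparan sulfate joins, the groups overlapped. FGF2 was measured at 180.4, 177 and 169 CPM in Vector-CM and at 175, 181 and 161 CPM in FGFBP1-CM (log2 fold change -0.02, adjusted p = 0.871). FGFR1 was measured at 209, 200.4 and 201 CPM in Vector-CM and at 203, 190.2 and 199 CPM in FGFBP1-CM (log2 fold change -0.04, adjusted p = 0.704). A p above the threshold does not show that these levels are the same. FGFBP1 itself stood at 0.245 CPM or less in every library of the recipient LX-2 cells and was not tested. Of the 8 markers of colorectal epithelium, 2 were tested and neither had an unadjusted p under 0.05, and the sum of the 8 was 4.92 to 6.47 CPM in Vector-CM and 4.70 to 5.21 CPM in FGFBP1-CM. Sums of endothelial (10.7 to 13.3 CPM) and leukocyte markers (1.29 to 2.26 CPM) overlapped between the groups.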

How the data were processed

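Per gene and library, the deposited table holds a raw count and an FPKM value. Reads were paired, the authors mapped them with Hisat2 (2.0.5) and obtained each count with featureCounts (1.5.0-p3), and FPKM was derived by the authors from that count and the length of the gene. The submitters' processing notes name hg18 as the build, while the table carries Ensembl identifiers of which 96.3% are in GENCODE release 29 (GRCh38). Coordinates and exon overlaps are those of GENCODE 29 and need not be those used for counting. Whether counting used strand is not given in the sources used here, so reads of overlapping genes on opposite strands cannot be told apart. The methods describe both poly(A) selection and removal of ribosomal RNA.

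Counts were tested in R 4.3.3 with edgeR 4.0.16 on the whole table (filterByExpr, TMM scaling, quasi-likelihood F-test with group as the term, Benjamini-Hochberg adjustment, threshold 0.05). CPM used the TMM-scaled library size, and the SE is the log2 fold change over the square root of F. All p-values are two-sided. An exact permutation test of 3 against 3 libraries cannot go below 0.1 and was not used. The alternatives were other scalings, filters, DESeq2 1.42.0, limma 3.58.1 on log2(FPKM + 1) and log2(FPKM + 0.1), a block for replicate number, a loess correction (span 0.3) for GC content and length, and each library left out in turn. The fits were tested on simulated data. Depth was 14003780 to 18508113 counts, the limit of a count of 0 is 3 counts, and it covers counting error only. No 2 libraries of a group were alike within counting noise.

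Groups came from the sample labels. All 38 genes were described by role, and of the other lists the genes past the adjusted threshold, at most 3 of each with the smallest unadjusted p under 0.05, and FGFBP1, FGF2, FGFR1, EGR1 and FAP were named, with marker genes where they moved with a gene described. The genes, lists and tests were chosen with earlier results of these data known. Promoter sequences are from RefSeq (GRCh38.p14).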

Additional observations from a re-analysis of the deposited data

How the results depend on the processing

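Of the 33 tested genes under 16 alternatives, 482 values kept their direction and their side of the threshold, 17 kept the direction and passed the threshold, and 21 in 9 genes changed sign. The count of heparan sulfate genes past the adjusted threshold was 0 with all libraries by edgeR, 5 with no filter (AGRN, B3GALT6, GPC3, HSPG2 and SDC4), 3 of 27 by DESeq2 (AGRN, HSPG2 and XYLT2), 1 with the GC and length correction (HSPG2), and 0 to 6 with 1 library left out. Of all genes, 20 passed by edgeR, 1382 with no filter, 616 by DESeq2, 129 with the GC and length correction, 38 with RLE scaling, 11 with a mean of at least 1 CPM, 1 with limma on log2(FPKM + 1) or log2(FPKM + 0.1), 60 with the correction and the block, and 4 to 883 with 1 library left out. DESeq2 gave no adjusted p for 6 genes (B3GALT6, GPC5, HS3ST3A1, HS3ST3B1, NDST2 and SULF1). The count at an unadjusted p under 0.05 stayed between 7 and 13, where the share of all genes ran from 12.9% with no filter (12 heparan sulfate genes) to 24.2% without FGFBP1-CM replicate 2 (13). The median log2 fold change of the tested heparan sulfate genes ran from -0.134 without Vector-CM replicate 1 to -0.0467 with limma on log2(FPKM + 1). Why these settings differ was not tested.

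Among genes close to 0, PAPSS1 was 0.0205 with library size only and 0.0187 and 0.0193 with limma on log2(FPKM + 1) and log2(FPKM + 0.1), EXTL2 was -0.0326 with the GC and length correction and -0.0301 with that and the block, and HS6ST1 was 0.00105 with the correction. With 1 library left out, the log2 fold change ran from -0.0548 to 0.0719 for EXTL2, -0.174 to 0.0391 for GPC2, -0.127 to 0.0484 for XYLT1, -0.0726 to 0.00768 for UXS1, -0.0666 to 0.0276 for PAPSS1, -0.189 to 0.0775 for HS3ST3B1, -0.0646 to 0.00265 for HS2ST1, -0.0275 to 0.245 for B4GALT7 and -0.104 to 0.0248 for HS6ST1.

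With the replicate number as a block (replicate block), 0 heparan sulfate genes passed the adjusted threshold, 11 had an unadjusted p under 0.05, and the median log2 fold change was -0.09; of all genes, 90 passed in place of 20. Libraries with the same number did not deviate together, with correlations over 16531 genes of -0.0935, -0.0271 and 0.12, so no pairing by number was seen. The labels do not say whether libraries with the same number were prepared together, and these correlations cannot settle it. Few counts limit the precision of NDST2 (SE 0.362) and SULF1 (SE 0.29).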
